A study of Mus musculus with 614 samples.

Results

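Bone marrow plasmacytoid dendritic cells (pDC) were compared with CD115-negative common dendritic cell progenitors (CDP) across all genes, within the library numbers RMD418 to RMD509. The comparison used every cell that the labels place in these 2 gates and in that run of numbers. It held 82 of the 614 cells of the series, 24 pDC and 58 CDP. The pDC were sorted as lineage-negative cells with the surface proteins B220 and SiglecH. The CDP were sorted as lineage-negative cells without CD11c and MHC class II, with Flt3 and an intermediate level of c-Kit, and without CD115 and IL7R. Both gates were primary, untreated cells flushed from the marrow of adult C57BL/6J mice of 7 to 10 weeks, enriched with magnetic beads, captured on a microfluidic chip and sequenced as single-cell libraries. Libraries were made only from cells with cDNA of high quality. No label names an animal or a pool, so each gate counts as 1 sample and no test of a difference between the gates was possible. Every SD below is over cells. The comparison asks how the transcripts of the pDC gate differ from those of a progenitor at the start of the dendritic lineage. Whether every cell of the pDC gate was mature was not tested.

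Plasmacytoid dendritic cells are the immune cells best known for releasing type I interferon when their endosomal Toll-like receptors meet viral nucleic acid. They look like secretory lymphocytes, no longer divide in their mature state, and depend on the E protein Tcf4 together with Spib, Irf8 and Runx2. CDP are dividing marrow progenitors that respond to Flt3 ligand and were described as a source of dendritic cells.

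Levels are TPM, a length-scaled share of the transcripts of a cell that keeps no read counts. The read depth is therefore unknown, and a count of the genes that reach 1 TPM in a cell is given in its place. That count was between 3006 and 6005 in pDC with a median of 4324, and between 3606 and 7140 in CDP with a median of 5208. The mitochondrial share of TPM had a median of 9.85% in pDC and 8.72% in CDP. It was above 20% in 3 pDC, the highest at 58.2%, and in 0 CDP. A Y-linked transcript was present in all 82 cells. The pDC lay within library numbers RMD445 to RMD500 and the CDP within RMD418 to RMD509, so the gates were interleaved in the run.

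The labels were checked against Spib, Cybb and Ccr9 for pDC and Cdk6 and Ccnd2 for CDP. These markers were chosen with earlier results of these data known, so their levels describe the gates and support nothing else. At 100 TPM or more, each of the 24 pDC had at least 1 of the 3 pDC markers: 8 cells had 1, 11 had 2 and 5 had all 3. Among CDP, 51 of 58 cells had 0 of them, 7 had 1 and 0 had more. At least 1 of Cdk6 and Ccnd2 reached 100 TPM in 5 of 24 pDC and in 55 of 58 CDP. No pDC reached that level for both, while 23 CDP did. The labels and the markers went together in both gates.

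Spib encodes an Ets-family transcription factor needed for pDC. Its levels in pDC had a lowest value of 0, a median of 167.6 and a highest value of 1245 TPM, against 0, 0 and 151 TPM in CDP. On the log2(TPM + 1) scale it averaged 6.02 ± 3.40 in pDC and 0.75 ± 1.598 in CDP (SD, 24 and 58 cells), a difference of 5.27. The 2 ranges overlapped at the low end, but 12 of 24 pDC exceeded the highest CDP. Spib was at 1 TPM or more in 87.5% of pDC (exact Clopper-Pearson 95% interval 67.6 to 97.3) and 20.7% of CDP (11.2 to 33.4). At 100 TPM or more the shares were 50% of pDC (29.1 to 70.9) and 3.45% of CDP (0.42 to 11.9). These intervals cover counting error only. Spib was seen in 0 of 65 lymphoid-primed multipotent progenitors (LMPP), a gate from another run of library numbers. That count allows a share of up to 4.62% (3 counts of 65 cells, the limit used for every count of 0).

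Cybb encodes the heme-bearing subunit of the phagocyte NADPH oxidase. It ran from 0 to 1502 TPM in pDC with a median of 448.7 TPM, and from 0 to 390 TPM in CDP with a median of 0.28 TPM. The difference of means was 6.55, and 13 of 24 pDC lay above every CDP. At 100 TPM or more it was in 70.8% of pDC (48.9 to 87.4) and 1.72% of CDP (0.0436 to 9.24). Ccr9, the receptor for the chemokine Ccl25, which guides cells to gut and thymus, was at 5.80 TPM or more in every pDC. Its median was 277.4 and its highest value 2601 TPM in pDC, against a median of 0.67 and a highest value of 463.3 TPM in CDP. At 100 TPM or more Ccr9 was in 66.7% of pDC (44.7 to 84.4) and 6.90% of CDP (1.91 to 16.7), and the difference of means was 6.28. The annotated span of Ccr9 (GRCm38 chr9:123678439-123784330, plus strand) is long, and the library kit does not mark strand, so reads from genes that overlap a named gene or lie antisense to it cannot be told apart.

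The 3 pDC markers were not all high in the same cells. Cybb and Ccr9 reached 100 TPM together in 10 of 24 pDC, Spib and Cybb also in 10, and Spib and Ccr9 in 6. In CDP no cell had any 2 of them at that level.

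Cdk6, the kinase partner of the D cyclins in G1, was the marker with the clearest CDP pattern. It ran from 0 to 488.1 TPM in pDC with a median of 3.71 TPM, and from 0 to 2095 TPM in CDP with a median of 716 TPM. It reached 100 TPM in 20.8% of pDC (7.13 to 42.2) and in 91.4% of CDP (81.0 to 97.1), and the difference of means was -5.50. Ccnd2, which encodes cyclin D2, had a median of 0.15 and a highest value of 23.7 TPM in pDC, against a median of 71.1 and a highest value of 986.7 TPM in CDP. No pDC reached 100 TPM, which allows a share of up to 12.5%, while 43.1% of CDP did (30.2 to 56.8). Among CDP, 42 of 58 cells had more Ccnd2 than the highest pDC. Of the 12 gates of the series, CDP had the highest mean of both genes.

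**Figure D1:**
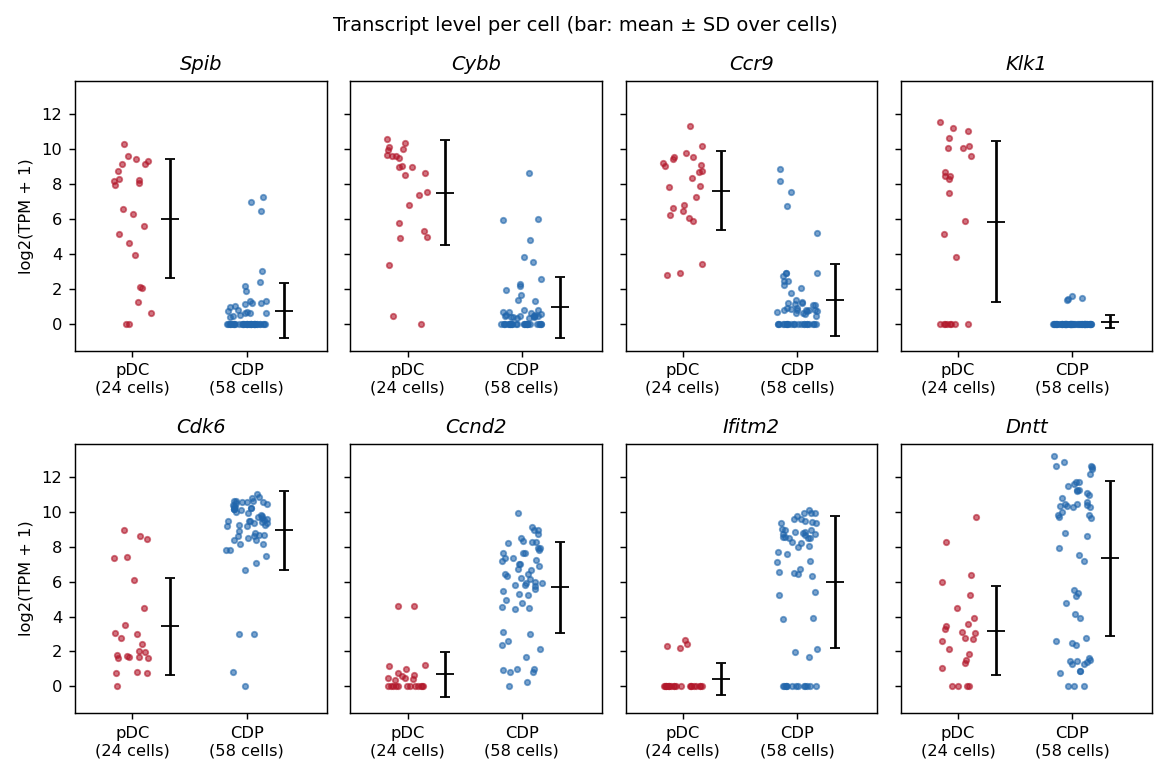
Each point is 1 cell of the 24 pDC (left in each panel) or the 58 CDP (right), plotted as log2(TPM + 1) for 8 genes, with the mean ± SD over cells as a bar. Spib, Cybb, Ccr9 and Klk1 had higher means in pDC, with pDC at 0 for all of them but Ccr9. Cdk6, Ccnd2, Ifitm2 and Dntt had higher means in CDP, with CDP at 0 for each of them, most often for Ifitm2.

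The promoters of the 3 pDC markers, of Klk1 and of Cdk6 are shown so that the genes that carry the contrast can be read at their start sites. Klk1 is the gene named for pDC with the lowest mean in CDP, and Cdk6 is the CDP marker. Each is the 250 bases before the RefSeq start on GRCm38.p6, written 5′ to 3′ on the strand of the gene, with every CANNTG in capitals. CANNTG is the general E-box, the motif class that E proteins such as Tcf4 are known to bind. It reads the same on both strands.
Spib (chr7:44532072-44532321, minus strand): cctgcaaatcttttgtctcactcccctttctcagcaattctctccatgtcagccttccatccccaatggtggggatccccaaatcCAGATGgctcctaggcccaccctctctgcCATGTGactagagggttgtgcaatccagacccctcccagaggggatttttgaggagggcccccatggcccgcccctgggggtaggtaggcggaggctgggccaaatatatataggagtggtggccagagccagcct
Cybb (chrX:9469325-9469574, minus strand): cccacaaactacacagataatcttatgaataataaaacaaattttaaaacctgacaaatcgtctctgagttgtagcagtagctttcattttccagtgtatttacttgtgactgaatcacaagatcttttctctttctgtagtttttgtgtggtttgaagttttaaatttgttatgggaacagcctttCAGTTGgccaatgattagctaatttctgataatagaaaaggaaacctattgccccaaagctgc
Ccr9 (chr9:123766961-123767210, plus strand): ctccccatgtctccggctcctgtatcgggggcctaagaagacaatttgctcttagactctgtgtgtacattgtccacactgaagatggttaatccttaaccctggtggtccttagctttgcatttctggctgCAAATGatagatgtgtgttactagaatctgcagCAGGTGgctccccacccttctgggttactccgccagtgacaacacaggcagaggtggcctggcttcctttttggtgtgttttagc
Klk1 (chr7:44225110-44225359, plus strand): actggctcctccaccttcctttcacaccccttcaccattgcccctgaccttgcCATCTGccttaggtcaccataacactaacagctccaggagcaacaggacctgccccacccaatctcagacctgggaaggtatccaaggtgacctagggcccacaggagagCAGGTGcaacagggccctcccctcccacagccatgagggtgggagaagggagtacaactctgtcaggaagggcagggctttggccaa
Cdk6 (chr5:3343643-3343892, plus strand): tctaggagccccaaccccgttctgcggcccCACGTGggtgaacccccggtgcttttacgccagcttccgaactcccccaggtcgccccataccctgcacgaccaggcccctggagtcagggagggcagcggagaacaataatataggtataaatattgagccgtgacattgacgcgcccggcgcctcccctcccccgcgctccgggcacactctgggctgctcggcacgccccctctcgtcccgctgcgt

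Spib, Ccr9 and Klk1 each held 2 E-boxes in this window, and Cybb and Cdk6 1 each. The motif is common: it was in 66.04% of the windows of 27025 genes. A window was found for 16 of the 25 genes named below as higher in pDC and for 18 of the 25 named as higher in CDP. The motif was in 13 of the 16 (81.2%) and in 11 of the 18 (61.1%). CACCTG or its reverse complement CAGGTG, a form of CANNTG of which Ccr9 and Klk1 hold 1 each, was in 4 of the 16 (25%), 4 of the 18 (22.2%) and 17.1% of all windows. GAGGAA, an Ets-type motif searched as itself and as TTCCTC, was in 4 of the 16 (25%), 3 of the 18 (16.7%) and 23.1% of all windows, and in none of the 5 shown. These are matches of letters, given as a description.

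Across the transcriptome 11499 genes reached 1 TPM in 10% or more of the 82 cells. The value for each gene was the difference, pDC minus CDP, between the means over cells of log2(TPM + 1). Cells at 0 enter the mean, so a difference combines how many cells hold a transcript with how much they hold. A size of 2 on this scale, a 4-fold difference, was used to call a gene. By that rule 125 genes were higher in pDC (1.09%) and 747 were lower in pDC (6.5%), together 7.58%. Counting every difference, 28.2% of the 11499 genes were higher in pDC and 71.8% were lower, the background for the counts by list given below. Lists take every detected member, also those under the 10% filter, so they and this background are not the same kind of gene set. Without that filter, over 22303 genes, the median difference was -0.09. A summed level is carried by the most abundant genes of a list, and where its order in the gates went against the sign of the list's median, both are given. The median difference of the 11499 genes, called all genes below, was -0.39. It stood beside the lower number of genes detected per pDC, whose part in it was not tested. With TPM divided by a size factor for each cell the median was -0.27, a shift of 0.12. Among genes found in 75 to 100% of the cells, 2.12% were higher by 2 and 21.2% were lower by 2. In the narrow set of cells with 4000 to 5000 genes, 14 pDC and 19 CDP, 2.27% of genes were higher and 6.15% lower by 2. The median difference there was -0.16. Pooled, 14.3% of the called genes were higher in pDC, against 26.96% in that set. Without the 3 pDC above 20% in mitochondrial share, 1.14% of genes were higher and 5.35% lower by 2, with a median of -0.33. No gene was higher in every pDC than in every CDP, and none the reverse.

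**Figure D2:**
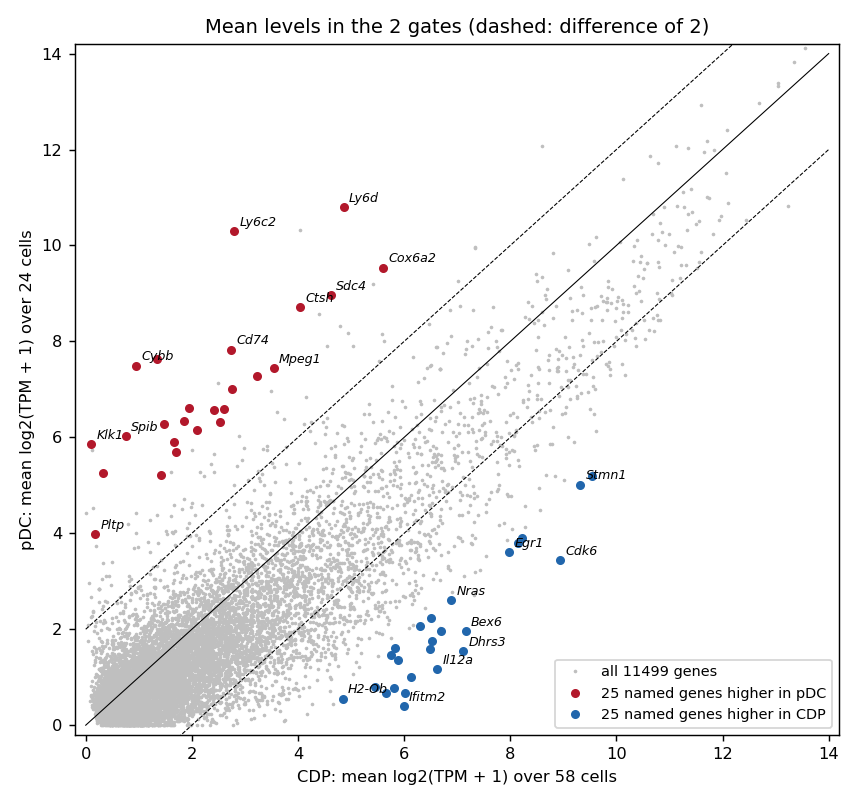
Each point is 1 of 11499 genes, with its mean log2(TPM + 1) over 24 pDC on the vertical axis and over 58 CDP on the horizontal axis; the solid line marks equal means and the dashed lines a difference of 2. The 25 named genes higher in pDC (red) lie up to 7.501 above the line and the 25 higher in CDP (blue) up to 5.59 below it, and most genes sit slightly below the line.

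Cells were also placed by their whole profile. The Spearman correlation across 9665 genes was taken between each cell and the mean of each gate, leaving the cell out of its own mean and leaving out transcripts of sort markers. Genes are not independent replicates, so these correlations are descriptions. Of the pDC, 23 of 24 lay nearer to the pDC mean, with a median correlation of 0.43 to pDC and 0.38 to CDP. Of the CDP, 57 of 58 lay nearer to the CDP mean, with a median of 0.43 to pDC and 0.51 to CDP. The 1 pDC nearer to CDP had the most genes of all pDC (6005), and the 1 CDP nearer to pDC had the fewest of all CDP (3606). The part of gene number in their position was not tested. The 3 pDC of another run, absent from the means, all lay nearer to the pDC mean. Leaving out the cell cycle lists gave the same 23 and 57 cells in number. With the Pearson correlation in place of Spearman's, 20 of 24 pDC lay nearer to the pDC mean and 58 of 58 CDP nearer to the CDP mean.

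**Figure D3:**
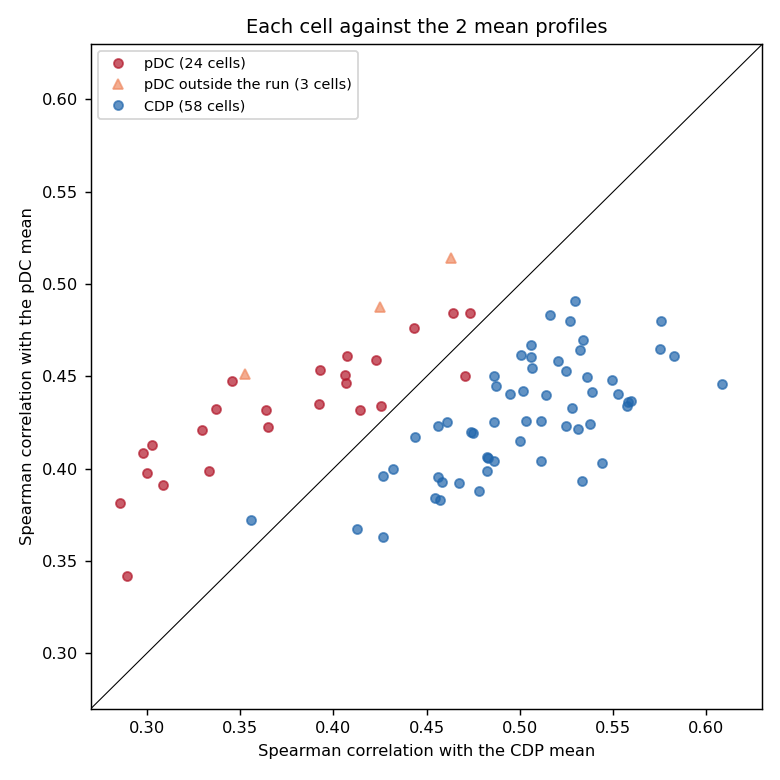
Each point is 1 cell, with its Spearman correlation to the pDC mean on the vertical axis and to the CDP mean on the horizontal axis; the line marks equality, and triangles are the 3 pDC outside the run. 23 of 24 pDC and all 3 triangles lie above the line, and 57 of 58 CDP lie below it.

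Among the transcription factors of pDC, Spib stood far above the others in the size of its difference. The list of 15 had 4 members higher by 2 and 0 lower by 2, with a median difference of 0.29 beside -0.39 for all genes. Irf8, which directs dendritic cell development, was at 84.0 TPM or more in every pDC, with a median of 1116 and a highest value of 3542 TPM. CDP ran from 0 to 2339 TPM with a median of 364 TPM, and the difference was 2.61. Tcf4, the E protein that maintains pDC, had a median of 884.7 TPM in pDC and 215 TPM in CDP and a difference of 2.25. Ets1, an Ets factor of lymphocytes, differed by 2.27, with medians of 7.80 TPM in pDC and 0.32 TPM in CDP. Irf8 and Tcf4 were present at 1 TPM or more in 55 of 58 CDP each, and Spib in 12.

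Other regulators of pDC differed by less than 2, in either direction. Bcl11a, a factor of lymphoid progenitors and pDC, had medians of 82.8 TPM in pDC and 92.9 TPM in CDP and a difference of -0.17. Ikzf1, which encodes Ikaros, had medians of 81.3 and 68.8 TPM in pDC and CDP and a difference of -0.15. Runx2, which acts in the exit of pDC from the marrow, differed by 1.51 and Irf7, the inducer of interferon genes, by 1.41. Spi1, which encodes PU.1, was nearly absent from pDC: 3 of 24 pDC and 22 of 58 CDP held it at 1 TPM, and its highest value was 5.47 TPM in pDC and 278.9 TPM in CDP. Its difference was -1.78, and of 12 gates pDC had the lowest mean.

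The E protein axis differed little apart from Tcf4. Of 12 listed genes 10 were detected, 1 was higher by 2 and 0 were lower by 2, with a median of -0.30. The summed level, by contrast, had a median of 1346 TPM in pDC and 690.2 TPM in CDP. Id2, an inhibitor of E proteins, had a difference of -1.14 and reached 100 TPM in 2 of 24 pDC and 14 of 58 CDP. Cbfa2t3, a corepressor also known as Eto2, had a difference of -1.18. Zeb2 was at 0.98 and Tcf12, another E protein, at 0.71.

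The surface and effector genes of pDC were the most one-sided list. All 26 were detected, 26 were higher in pDC and 18 were higher by 2, with a median difference of 3.39. The list was drawn from genes known in pDC and was fixed with results of these data known, so its direction is not independent evidence. Its summed level had a median of 20535 TPM in pDC (lowest 1238, highest 38128) and 1756 TPM in CDP (lowest 156, highest 17432). Ly6c2, which encodes a Ly6C surface protein, had the largest difference of all named genes at 7.501. It was at 14.4 TPM or more in every pDC, with a median of 1855 and a highest value of 15832 TPM, against a median of 2.18 and a highest value of 2447 TPM in CDP. Its near-identical neighbour Ly6c1 differed by 1.42, and reads shared by the pair may have been split between them.

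Ly6d, which marks lymphoid progenitors and pDC, showed how much the call depends on the level asked of a cell. It was at 1 TPM or more in 95.8% of pDC (78.9 to 99.9) and 87.9% of CDP (76.7 to 95). At 100 TPM or more the shares were 91.7% of pDC (73.0 to 99.0) and 29.3% of CDP (18.1 to 42.7). Its median was 2512 TPM in pDC and 6.88 TPM in CDP, while the highest CDP held 14503 TPM and only 2 pDC exceeded it. LMPP had it in 0 of 65 cells. Ly6d and Ly6c2 were together at 100 TPM or more in 18 of 24 pDC and 8 of 58 CDP.

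Klk1, a tissue kallikrein, divided the pDC among themselves. It was at 1 TPM or more in 16 of 24 pDC and at 100 TPM or more in 13, with a highest value of 3030 TPM and the other 8 pDC below 1 TPM. In CDP 4 of 58 cells held it at 1 TPM and the highest value was 2.04 TPM. Its difference was 5.75, with means of 5.85 ± 4.61 in pDC and 0.10 ± 0.37 in CDP (SD, 24 and 58 cells). The 3 pDC of another run had 0, 0 and 5.45 TPM. Klk1 and Ccr9 were both at 100 TPM or more in 10 pDC. Klk1b27, a close paralog, reached 100 TPM in 3 pDC and 0 CDP, and the counting may not have parted the 2 genes.

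Further surface genes were higher in pDC, several of them by more than 4. Lair1, an inhibitory collagen receptor, had medians of 184 TPM in pDC and 0 TPM in CDP and a difference of 4.79. Cd300c, an immunoglobulin-family receptor, had medians of 81.8 TPM in pDC and 0 TPM in CDP, with a difference of 4.47. Sdc4, the heparan sulfate proteoglycan syndecan 4, was at 1 TPM or more in all 24 pDC and 39 of 58 CDP, with medians of 786 TPM in pDC and 6.62 TPM in CDP. Bst2, the tetherin that the PDCA-1 antibody binds, was at 100 TPM or more in 15 of 24 pDC and 12 of 58 CDP and differed by 4.25. Atp1b1, a sodium pump subunit, differed by 4.24 and Cd7, an early lymphoid surface protein, by 3.98. Some genes were high in few pDC: Havcr1, the receptor Tim-1, reached 100 TPM in 8 pDC and 0 CDP, and Klra17, a Ly49-family receptor, in 5 pDC and 0 CDP.

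Cell by cell, pDC held many of these genes at high level and CDP a few. Leaving out Siglech, whose protein was sorted, the number of the 25 other genes at 100 TPM or more was between 1 and 16 in pDC with a median of 10. It was between 0 and 11 in CDP with a median of 3. At least 5 were at that level in 23 of 24 pDC and in 19 of 58 CDP. The 1 pDC with a single such gene also had the fewest genes of any pDC, 3006.

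**Figure D4:**
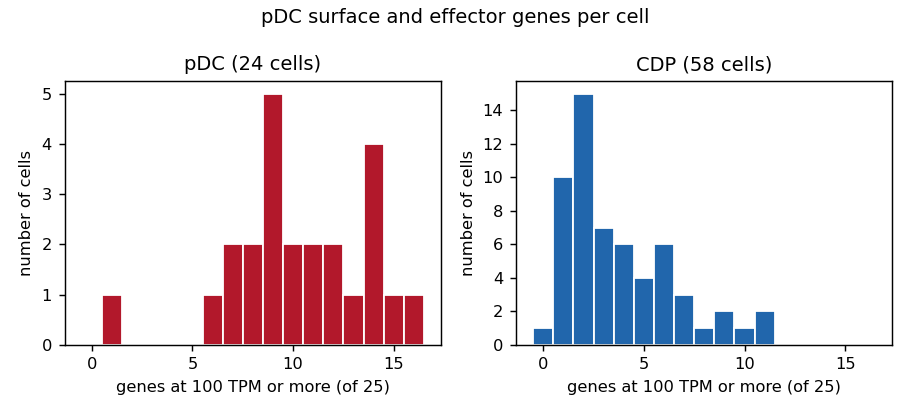
Number of cells (vertical axis, scaled separately in the 2 panels) by how many of 25 pDC surface and effector genes a cell held at 100 TPM or more (horizontal axis), for 24 pDC on the left and 58 CDP on the right. The pDC centre on 10 and the CDP on 3, and the distributions overlap between 1 and 11.

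The genes of the Toll-like receptor pathway, which defines the function of pDC, split evenly by direction. Of 24 genes 12 were higher and 12 lower, with 0 past 2 in either direction and a median of -0.02. Of all genes 28.2% were higher, with a median of -0.39, so the list stood somewhat above that background. Tlr7, the receptor for single-stranded RNA, was at 1 TPM in 6 of 24 pDC and 12 of 58 CDP, with a difference of 0.29. Tlr9, the receptor for CpG DNA, was at 1 TPM in 5 of 24 pDC and 8 of 58 CDP, with a difference of 0.38. Tlr3, for double-stranded RNA, was more widespread in pDC, with 19 of 24 pDC and 10 of 58 CDP, but at no more than 16.2 TPM in pDC and 21.98 TPM in CDP. Unc93b1, which carries these receptors to endosomes, had medians of 136 TPM in pDC and 86.1 TPM in CDP. Nfkb1 (-1.57) and Irak1 (-1.48) were the members lowest in pDC.

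The phagocyte oxidase genes did not share a direction. Cybb was higher in pDC and Ncf4, a cytosolic subunit, was lower, with a difference of -2.32, medians of 0 TPM in pDC and 2.57 TPM in CDP, and 2 of 24 pDC and 19 of 58 CDP at 100 TPM or more. Cyba, the membrane partner of Cybb, differed by 0.999 with medians of 280.7 TPM in pDC and 89.4 TPM in CDP. Ncf1, another cytosolic subunit, had a difference of -1.16, and Rac2 was level at -0.06. The median of the 7 detected genes was -0.57, while their summed level had a median of 1948 TPM in pDC and 1139.8 TPM in CDP.

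Lysosomal genes had the highest list median after the surface genes. Of 23 genes 15 were higher and 8 lower, with 8 higher by 2 and 1 lower by 2, and a median of 1.04. Ctsh, an aminopeptidase cathepsin, was at 1.83 TPM or more in every pDC with a median of 594 TPM, against 5.48 TPM in CDP, a difference of 4.69. Ctsl, a cysteine cathepsin that also trims Toll-like receptors, had medians of 230 TPM in pDC and 0 TPM in CDP and a difference of 4.67. Ctsb had medians of 923.9 TPM in pDC and 66.8 TPM in CDP and a difference of 3.78, and of 12 gates pDC had its highest mean. Psap, the precursor of saposins, differed by 3.48, and Grn, which encodes progranulin, by 3.24. Lgmn, the asparagine endopeptidase, was found in every cell, between 134 and 4504 TPM in pDC and between 75.5 and 702 TPM in CDP, with a difference of 1.04. The cathepsins did not all go the same way: Ctsd had a difference of -1.59, and Hexa, a hexosaminidase subunit, -2.34. Cst3, the cystatin abundant in dendritic cells, was at -0.07.

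Among MHC class II genes, Cd74 and H2-Aa divided the pDC at 100 TPM but hardly at 1 TPM. MHC class II was a negative sort marker for CDP, so H2-Aa, H2-Ab1 and H2-Eb1 check the sort and are no finding. Cd74, the invariant chain, had a lowest value of 0, a median of 689.4 and a highest value of 11786 TPM in pDC, against 0, 3.22 and 2478 TPM in CDP, a difference of 5.09. It reached 100 TPM in 15 of 24 pDC and 6 of 58 CDP. The part that sorting CDP without MHC class II had in the difference of Cd74 was not tested. H2-Aa reached 100 TPM in 9 pDC, all of them among the 15 with Cd74, and in 1 CDP. At 1 TPM or more Cd74 was in 23 of 24 pDC and 46 of 58 CDP, and H2-Aa in 21 pDC and 47 CDP. H2-Ob, a chain of the H2-O protein that restrains peptide loading, went the other way with a difference of -4.29. Its highest value was 5.63 TPM in pDC, and 23 of 58 CDP held 100 TPM or more, up to 1681 TPM. The class II transactivator Ciita was at 1 TPM in 1 pDC and 1 CDP. MHC class I genes had 0 of 15 members past 2 and a median of -0.42, near that of all genes. Their summed level had a median of 11242 TPM in pDC and 7206 TPM in CDP, and the list median was 0.23 with the log2 of the mean TPM.

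Secretory pathway genes did not rank together. Of 30 genes 7 were higher and 23 lower, with 2 higher by 2 and 3 lower by 2, and a median of -0.62. The share of lower members was near the 71.8% of all genes. The summed level had a median of 7593 TPM in pDC and 4987 TPM in CDP, against the sign of the list median, which was -0.04 with the log2 of the mean TPM. Xbp1, the transcription factor of the unfolded protein response, had medians of 43.8 TPM in pDC and 0.70 TPM in CDP and a difference of 2.97. Herpud1, which acts in degradation of misfolded proteins, differed by 2.58. Subunits of the translocation and signal peptidase machinery were lower in pDC: Spcs1 had a difference of -3.39, Ssr3 of -2.42 and Spcs2 of -2.27. Interferon-stimulated genes had 9 of 16 higher and 7 lower, with 2 higher by 2, Bst2 and Ifi27l2a (2.41), and a median of 0.12. Ifit1 was at 1 TPM in 1 pDC and 1 CDP, and Isg15 in 1 pDC and 9 CDP.

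Receptors for chemokines other than Ccr9 included further genes higher in pDC. Ccr2, which draws cells from the marrow, differed by 2.07. Of 13 detected receptors 6 were higher and 7 lower, 3 higher by 2 and 0 lower by 2, with a median of -0.06 and a summed level of 759.8 TPM in pDC and 58.16 TPM in CDP at the median. Cxcr4, the marrow retention receptor, was at 0.42. Of the adhesion genes Itgb2, the shared chain of the leukocyte integrins, differed by 2.52, while Emb, the adhesion protein embigin, differed by -5.33 with medians of 0 TPM in pDC and 91.5 TPM in CDP. That list of 20 had 7 higher and 13 lower, a share near that of all genes, with a median of -0.27 and a summed level of 2817 TPM in pDC and 2293 TPM in CDP at the median.

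Of the remaining genes with the largest differences in favour of pDC, Cox6a2 is on the surface and effector and the oxidative phosphorylation lists, and the others are on no list. Kmo, an enzyme of tryptophan breakdown, had medians of 305.2 TPM in pDC and 3.53 TPM in CDP and a difference of 4.06. Mpeg1, the pore-forming perforin-2, was at 1.71 TPM or more in every pDC, with medians of 217 TPM in pDC and 10.9 TPM in CDP and a difference of 3.90. Pltp, the phospholipid transfer protein, reached 100 TPM in 8 of 24 pDC, while its highest value in CDP was 2.99 TPM. Fyn, a Src-family kinase, differed by 3.78 with medians of 102 TPM in pDC and 0.83 TPM in CDP. Cox6a2, a subunit of cytochrome oxidase known from heart and muscle, had medians of 1294 TPM in pDC and 119 TPM in CDP and a difference of 3.93. D13Ertd608e differed by 4.93, Rell1 by 4.15, Smim5 by 4.06, Ly6a, the Sca-1 antigen with near-identical paralogs, by 3.999, and Lrrc16a by 3.78. These genes were not confined to pDC: at 1 TPM or more the 25 named genes higher in pDC were in a median of 44.8% of CDP (lowest 6.90%, highest 87.9%). At 100 TPM or more the median was 13.8% (0 to 53.4%). In LMPP, which came from another run, the median share at 1 TPM was 4.62%. Why CDP held these genes at low level was not tested.

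In the cell cycle, S phase genes were lower in pDC as a list, and only part of the G1 genes were. The list of 19 detected G1 genes had 0 higher by 2 and 4 lower by 2: Cdk6, Ccnd2, Cdk4 and Cdkn1a. Cdk4, the other partner of the D cyclins, had medians of 17.2 TPM in pDC and 528 TPM in CDP and a difference of -3.23. Cdkn1a, which encodes the inhibitor p21, was at 1 TPM in 3 of 24 pDC and 25 of 58 CDP and differed by -2.10. Ccnd1, by contrast, was at 1.5 and Ccnd3 at -1.60, so the D cyclins did not share a direction. Of the 19 genes, 6 were higher and 13 lower. Both the share of lower members and the list median of -0.49 were near those of all genes that passed the 10% filter, as 15 of these 19 did.

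All 20 S phase genes had negative differences and 8 were lower by 2, with a median of -1.57. Mcm4 and Mcm3, parts of the replicative helicase, differed by -3.39 and -3.12. Mcm4 had medians of 0.73 TPM in pDC and 70.2 TPM in CDP and reached 100 TPM in 3 of 24 pDC and 27 of 58 CDP. Rfc2, a clamp loader subunit, was at -3.01 and Pcna, the sliding clamp, at -2.05. Tyms, thymidylate synthase, was level at -0.05. The summed level of the list had a median of 155 TPM in pDC and 2512 TPM in CDP, while the highest pDC held 8730 TPM, close to the highest CDP at 8969 TPM. The pDC gate held cells at both ends.

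Genes of G2 and mitosis were not lower in pDC by the same measure. Of 20 genes 12 were higher and 8 lower, with 0 past 2 and a median of 0.12, beside 28.2% higher and a median of -0.39 for all genes. Top2a, the topoisomerase of dividing cells, was at 100 TPM or more in 8 of 24 pDC and 17 of 58 CDP, and Mki67, which encodes Ki-67, in 4 pDC and 7 CDP. Birc5, which encodes survivin, differed by 1.18 and Kif23, a cytokinesis kinesin, by -1.28. Summed over the list, the median was 25.2 TPM in pDC and 168.5 TPM in CDP, with highest values of 6640 TPM in pDC and 7898 TPM in CDP. The median of the sums and the median difference of the list thus had opposite signs.

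Multipotency genes were lower in pDC throughout: 21 of 22 had negative differences and 8 were lower by 2, with a median of -1.52. Cd34, a sialomucin of progenitors, was at 100 TPM or more in 0 of 24 pDC, which allows up to 12.5%, and in 55.2% of CDP (41.5 to 68.3). Its highest value was 36.8 TPM in pDC and 2061 TPM in CDP, with a difference of -4.22. Gpr56, an adhesion receptor of stem cells, had a highest value of 1.33 TPM in pDC and was at 1 TPM in 45 of 58 CDP. Meis1, a homeobox partner of Hox proteins, differed by -3.08. Sox4, a factor of progenitors, was at 1 TPM in 1 of 24 pDC and 43 of 58 CDP, and Lyl1, a factor of early haematopoiesis, in 4 pDC and 34 CDP. Myc was at most 4.41 TPM in pDC, and 15 of 58 CDP held 100 TPM or more. Myb remained in 7 of 24 pDC at 100 TPM or more, beside 31 of 58 CDP, and differed by -2.45.

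Early lymphoid genes did not all lie on the same side. Of 18 detected genes 5 were higher and 13 lower, with 1 higher by 2 and 2 lower by 2, and the list median was -0.37. Both the share of lower members and the median were near those of all genes. Dntt, the terminal transferase of lymphoid progenitors, had medians of 6.54 TPM in pDC and 818.2 TPM in CDP and a difference of -4.14. Satb1, a chromatin organiser, had medians of 1.24 TPM in pDC and 135 TPM in CDP and a difference of -4.08. Rag2, a recombinase subunit, was at most 1.71 TPM in pDC, and 9 of 58 CDP held 100 TPM or more. Blnk, an adaptor of B cell receptor signalling, was higher in pDC with a difference of 2.06. Ighm was equally high in both gates, with medians of 1897 TPM in pDC and 1947 TPM in CDP. Dntt and Ly6d were together at 100 TPM or more in 2 of 24 pDC and 8 of 58 CDP, and Cd34 and Ly6d in 0 pDC and 5 CDP.

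Several cytokine receptors of this comparison were sort markers. Flt3, c-Kit, CD115 and IL7R were used to select CDP, so their transcripts check the labels. Flt3 had medians of 3.77 TPM in pDC and 252.5 TPM in CDP, and Kit was below 1 TPM in every pDC. Csf1r, which encodes CD115, was at 1 TPM or more in 0 of 24 pDC and in 15 of 58 CDP, whose gate was negative for the protein. Il7r, likewise a negative marker of CDP, was at 100 TPM or more in 12 of 24 pDC and 20 of 58 CDP. Apart from these, Csf2rb2, a receptor chain for interleukin 3, was at 0.45 TPM or more in every pDC and differed by 2.86. The list of 23 detected receptors, sort markers included, had a median of -0.36. It had 2 higher by 2, Csf2rb2 and the sort marker Il7r, and 2 lower by 2, Cd34 and the sort marker Flt3.

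Immediate-early genes, which respond to growth signals and to handling of cells, were lower in pDC. Of 18 genes 15 had negative differences and 6 were lower by 2, with a median of -1.33. Fos ran from 0 to 3405 TPM in pDC with a median of 13.5 TPM, and from 4.99 to 6924 TPM in CDP with a median of 1218 TPM. Egr1, a zinc finger factor, had medians of 3.63 TPM in pDC and 706 TPM in CDP, and Zfp36, which destabilises cytokine mRNA, 15.01 TPM in pDC and 643.9 TPM in CDP. Jun (-0.46) and Klf6 (0.49) did not share that difference. Cd69, an early activation antigen, is on no list and differed by -4.32, with 6 of 24 pDC and 42 of 58 CDP at 100 TPM or more. Times of handling before capture are not in the labels, and their part in these values was not tested.

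Genes of growth and of basic metabolism formed the broadest group lower in pDC. Of 26 ribosome biogenesis genes 24 were lower, 8 by 2 or more, with a median of -1.14. Dkc1, a pseudouridine synthase, differed by -3.15 and Npm1, the nucleolar protein nucleophosmin, by -2.29, and Npm1 was at 2.82 TPM or more in every pDC and at 109 TPM or more in every CDP. Of 27 nuclear genes of oxidative phosphorylation 26 were lower, 9 by 2 or more, and Cox6a2 was the exception. Their median was -1.53, yet their summed level had medians of 9265 TPM in pDC and 9016 TPM in CDP, so the list did not have a lower total in pDC. That total includes Cox6a2, whose higher median in pDC is given above, and the sum without it was not taken. Uqcrc1, a core subunit of complex III, differed by -3.41. These are genes found in many cells, a class in which lower values in pDC were common, as given above.

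Cytoskeletal genes fell on both sides, actin genes among them. Stmn1, which destabilises microtubules, had medians of 8.62 TPM in pDC and 1333 TPM in CDP and a difference of -4.30, although 7 of 24 pDC held 100 TPM or more and 2 pDC exceeded every CDP. Vim, the intermediate filament vimentin, differed by -3.43 and Marcksl1, an actin-binding kinase substrate, by -3.27. Tmsb4x, the actin-binding thymosin, was at 1.27, and Actb was high in all cells at 0.34. Actg1, another actin, was at -2.01 and Cfl1, the actin-binding cofilin, at -1.27. Of 19 genes 4 were higher and 15 lower, 1 higher by 2, the tubulin Tubb2a, and 6 lower by 2, with a median of -1.52. Their summed level had a median of 24268 TPM in pDC and 21098 TPM in CDP.

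The largest difference in favour of CDP was that of Ifitm2, a membrane protein that blocks virus entry. It was at most 5.33 TPM in pDC and had a median of 230 and a highest value of 1086 TPM in CDP, a difference of -5.59. At 1 TPM or more it was in 16.7% of pDC (4.74 to 37.4) and 77.6% of CDP (64.7 to 87.5). Its paralog Ifitm3 differed by -2.82, and the near-identical sequences of the family make the split between its members uncertain. All 6 detected members had negative differences, 2 by 2 or more.

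Other genes named for CDP covered several roles. Dhrs3, a retinaldehyde reductase, had medians of 1.65 TPM in pDC and 440 TPM in CDP and a difference of -5.56, and CDP had the highest mean of 12 gates. Il12a, which encodes the p35 chain of interleukin 12, was at 1 TPM in 7 of 24 pDC and 51 of 58 CDP, with a highest value of 2438 TPM in CDP and a difference of -5.46. Bcl2, the survival protein, had medians of 0.86 TPM in pDC and 104 TPM in CDP and a difference of -4.28. Serpinb1a, an inhibitor of granule proteases, differed by -5.14, and Cd93, a receptor of early progenitors, by -4.78. Nras, a small GTPase, differed by -4.28, Mdh1, the cytosolic malate dehydrogenase, by -4.35, and Etfb, an electron transfer subunit, by -4.67. Bex6 differed by -5.19, Tmem176b by -5.03, Gpr97, an adhesion receptor of granulocytes, by -4.91, Cmtm7 by -4.72, Zfp422 by -4.53, Rsl1d1, a nucleolar protein, by -4.27 and Adh5, a formaldehyde-clearing dehydrogenase, by -4.23. At 1 TPM or more the 25 named genes higher in CDP were in a median of 50% of pDC (16.7 to 91.7%), and at 100 TPM or more in 8.33% (0 to 33.3%). In LMPP their median share at 1 TPM was 75.4%.

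Markers of other cell types were counted in both gates, and their part in the differences was not tested. Of 11 detected monocyte genes 3 were higher and 8 lower, with a median difference of -0.70, and their sum, led by Ly6c2 in pDC, had a median of 2293 TPM in pDC (30.7 to 17838) and 761 TPM in CDP (11.7 to 5927). Lyz2 was at most 1.86 TPM in pDC, and 11 of 58 CDP held 100 TPM or more. Of 11 granule genes 8 were detected. Their sum was at most 36.7 TPM in pDC and had a median of 209 and a highest value of 5136 TPM in CDP, where Mpo reached 100 TPM in 20 of 58 cells and Elane in 1. Elane and Ctsg were 0 in every pDC.

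Of 18 conventional dendritic cell genes 9 were higher and 9 lower, with sums of 0.86 to 4678 TPM in pDC (median 693.3) and 5.59 to 8191 TPM in CDP (median 306.1). Clec9a, a receptor of conventional dendritic cells, differed by 2.16 and was at 100 TPM or more in 4 of 24 pDC and 0 CDP. Among B lineage genes Pax5 was 0 in all 82 cells, and the sum of 31.2 to 8031 TPM in pDC and 70.9 to 5380 TPM in CDP was nearly all Ighm. T and NK cell genes summed to 0 to 45.1 TPM in pDC and 0 to 1244 TPM in CDP, where Nkg7, a granule membrane protein, was at 100 TPM or more in 20 cells. Plasma cell genes summed to at most 2755 TPM in pDC (median 104.9) and 2112 TPM in CDP (median 12.83), with Igj at 0 in all cells. Erythroid and platelet genes reached 3.15 TPM in pDC and 1654 TPM in CDP, the highest from Car2, while Hbb-bs was 0 in every pDC. Basophil and mast cell genes were at most 1.96 TPM in pDC and 159 TPM in CDP. Macrophage genes were at most 25.7 TPM in pDC and 90.5 TPM in CDP, with C1qa at 0 in all cells.

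**Figure D5:**
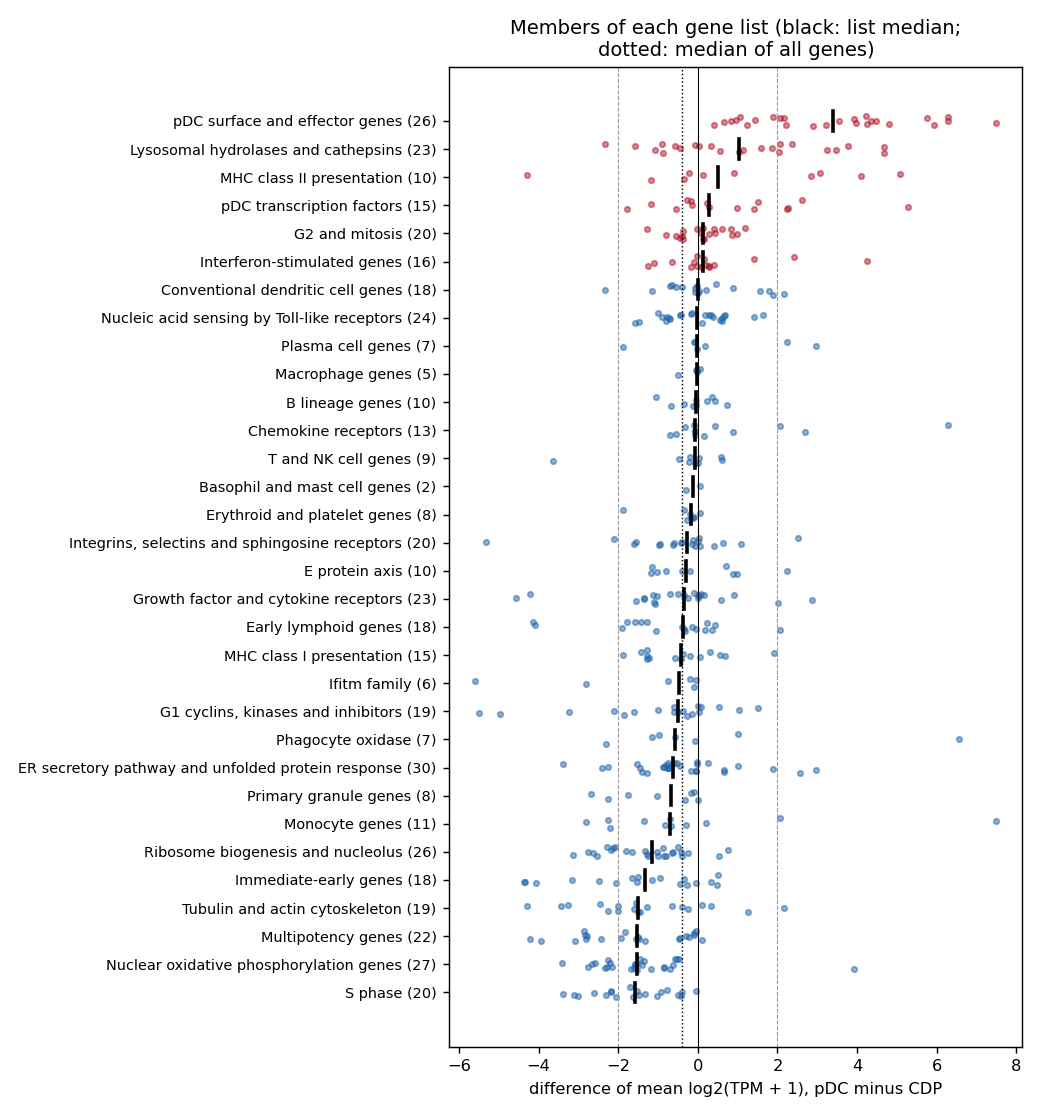
Each point is 1 detected gene of a list, at its difference of mean log2(TPM + 1), pDC minus CDP, on the horizontal axis; lists are ordered by their median (black bar), with the number of detected members in brackets, and the dotted line marks the median of all genes at -0.39. The pDC surface list stands at 3.39 with every member above 0, and S phase stands at the other end at -1.57.

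The 24 pDC were set beside the 3 pDC from another run and beside other gates. For 20 of the 25 genes named as higher in pDC, the mean of those 3 cells was nearer to the 24 pDC than to the CDP. For the 25 named as higher in CDP, it was nearer to the CDP for 4. Spib had 547, 99.6 and 244.96 TPM in the 3 cells, Cybb 915.3, 1546 and 1195 TPM, and Ccr9 34.8, 773.1 and 412 TPM. Cdk6 had 0, 1.42 and 0 TPM, and Ccnd2 was 0 in all 3. Across the 12 gates, pDC had the highest mean for 12 of the 25 genes higher in pDC and was among the first 3 gates for 23. CDP had the highest mean for 6 of the 25 genes higher in CDP and was among the first 3 for 18. The gate of SiglecH+Ly6C- pre-DC, CD11c-positive precursors from other runs, was nearer to pDC than to CDP for 13 genes of the pDC set and 17 of the CDP set. Its means were near to pDC for Irf8, at 9.95 in pDC and 9.85 in those precursors, and for Tcf4, at 9.26 and 9.29. For Ccr9 they were 7.63 in pDC and 2.20 in the precursors, and for Klk1 5.85 and 0.18.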

How the data were processed

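The authors deposited TPM per gene symbol and cell, made with RSEM 1.2.19 on GRCm38 per the submitters' processing notes. Which aligner and which annotation were used is not given in the sources used here. TPM hold no read counts, so no count test was run and the depth is unknown. Each gate is 1 sample, and replicate numbers only name cells. Intervals printed beside shares are exact Clopper-Pearson 95% intervals, and the limit for a count of 0 is 3 counts of the cells. Of 43280 symbols, 11499 that reached 1 TPM in 10% or more of the 82 cells were compared by the difference of mean log2(TPM + 1), with a pseudocount of 1 and a size of 2 as threshold. Named genes are the 25 largest differences per direction among genes that reached 1 TPM in 50% or more of the higher gate. Predicted genes, pseudogenes, mitochondrial, ribosomal protein, sex-linked and antigen receptor genes and sort markers were left out of this ranking. Members of 32 gene lists and the 5 markers are named besides. A list is described by its median and counts. The comparison, markers and lists were chosen with earlier results of these data known. Alternatives were other pseudocounts, the log2 of the mean TPM, size factors, other thresholds, subsets of cells and of library numbers, and the 27 pDC together. Doublets were not called, but a run without the top 5% of cells by gene number was made. GENCODE M21 on GRCm38 gave coordinates for 91.2% of symbols, and promoters are from RefSeq on GRCm38.p6. Computation used scipy 1.17.1, pandas 2.3.3 and numpy 2.4.6 under Python 3.11.15, and drawing matplotlib 3.10.9. The difference of means was tested on simulated data, made by shuffling the values of genes found in 75% or more of the cells. Sparser genes and the other steps were not part of that test. Some members of the lists are not reported here.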

Additional observations from a re-analysis of the deposited data

How the results depend on the processing

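No paired analysis was possible because replicate numbers only name cells and each gate is 1 sample. All 50 named genes kept their direction in each of 15 alternatives, and 43 stayed past a size of 2 in each. Of 32 list medians, 21 never took the other sign; those of the Toll-like receptor (10 alternatives), conventional dendritic cell (6) and B lineage (5) lists did so most often. Calls past 2 are given here as percentages of the genes tested, a form chosen after the values were seen, and they moved most with the scale. They were 2.10% higher and 15.5% lower (1780 genes) with a pseudocount of 0.1, 0.444% and 1.30% with 10 (51 and 150 genes), and 5.79% and 19.03% (2188 genes lower) with the log2 of the mean TPM. The higher share of the called genes was 25.4% with a pseudocount of 10. Library numbers RMD445 to RMD472 gave 1.79% higher, numbers RMD473 to RMD500 gave 10.8% lower (1278 genes), and cells with 4000 to 5000 genes gave 2.27% higher. Without a filter the shares were 0.560% and 3.35%, from the same counts of 125 and 747 over more genes, and a filter at 25% of cells gave 10.3% lower. The pDC surface list had a median of 2.12 with a pseudocount of 10. With the log2 of the mean TPM the medians were -2.65 for multipotency, -1.59 for early lymphoid, -4.61 for granule, -2.38 for erythroid and platelet, -1.10 for basophil and mast cell and -0.10 for oxidative phosphorylation genes. Shares of pDC at 100 TPM were 50% for Spib, 70.8% for Cybb, 66.7% for Ccr9, 20.8% for Cdk6 (33.3% at 10 TPM) and 0% for Ccnd2. Shares of CDP at 10 and 100 TPM were 5.17% and 3.45% for Spib, 10.3% and 1.72% for Cybb and 8.62% and 6.90% for Ccr9, and 43.1% at 100 TPM for Ccnd2. The cause was not tested. Added after seeing the data were the cells with 4000 to 5000 genes, values under 10 TPM set to 0, and leaving out the 3 pDC of high mitochondrial share or the 2 cells nearer to the other gate. Leaving out cells under 2000 genes removed none, and cells with Xist and no Y-linked transcript, of which there were 0, were not run.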

Other observations

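Antigen receptor segments stood outside the rule for named genes, and the following were chosen after their values were seen. Iglc2, a constant segment of the immunoglobulin lambda light chain, was at 1 TPM or more in 15 of 24 pDC and 4 of 58 CDP, and at 100 TPM or more in 13 pDC and 0 CDP. Its highest value was 4929 TPM in pDC and 2.96 TPM in CDP, and the difference of means was 5.603. Iglv3, a variable segment of the same chain, was at 100 TPM or more in 9 pDC and 0 CDP, 8 of the 9 together with Iglc2. Ighj1, a joining segment of the heavy chain, went the other way, with 7 of 24 pDC and 40 of 58 CDP at 100 TPM or more and a difference of -3.66. Igkc, the kappa constant segment, was at 100 TPM or more in 5 pDC and 1 CDP. Pax5 was 0 in every cell of both gates. Lambda segments share sequence, so the split of reads between them is uncertain, and where these transcripts come from was not tested.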
